A study of Mus musculus with 12 samples.

Results

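The genes of the extracellular matrix and the basement membrane were followed in RNA-seq libraries of IMCD3 cells, a mouse cell line from the inner medullary collecting duct. They were chosen by gene symbol, 51 genes of the 48034 in the deposited expression table, and each symbol was found. By role they were 19 basement membrane genes, 5 fibrillar collagens, 4 other collagens, 3 interstitial proteoglycans, 8 glycoproteins, 5 crosslinking enzymes of the lysyl oxidase family, 4 proteases and 3 protease inhibitors. All libraries came from subclone 53a, which, as known of the study, holds an inducible dominant-negative form of a factor that regulates kidney tubule genes, turned on by mifepristone. The 4 groups were cells given mifepristone with 100 mM added NaCl, mifepristone without it, vehicle with 100 mM added NaCl, and vehicle without it, with 3 libraries each (A, B and C). The subclone is a single clone, and every library comes from cells that carry the construct, so what the drug does on its own cannot be told apart from what the induced protein does. Fewer cells of a kind and less RNA per cell cannot be told apart in bulk RNA either.

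Epithelial cells rest on a basement membrane, a sheet built of a laminin network and a collagen IV network that nidogens and heparan sulfate proteoglycans tie together. Collagen IV chains join as trimers of Col4a1 with Col4a2 products, of Col4a3, Col4a4 and Col4a5 products, or of Col4a5 with Col4a6 products, and the chains of Col4a3, Col4a4 and Col4a5 are those whose loss causes Alport syndrome in the kidney. Beneath the sheet lies interstitial matrix of fibrillar collagens and small proteoglycans, made in the kidney mostly by fibroblasts, and lysyl oxidases crosslink collagens while metalloproteases cut the matrix and TIMP proteins inhibit the cutting.

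Reads recovered from the deposited values summed to between 41940955 and 49270776 per library. Levels are given as FPKM, fragments scaled to transcript length and to the depth of the library, which can be compared between genes. A gene was tested where it reached 1 FPKM in at least 3 of the 12 libraries, which 14044 genes did. All 6 epithelial markers examined passed this filter, summing to between 473 and 985 FPKM per library. Of 9 collecting duct markers 4 passed (Pax2, Hoxb7, Tfcp2l1 and Scnn1a), while Aqp2, the vasopressin-regulated water channel, had at most 6 reads in a library and Avpr2, the vasopressin receptor, at most 3. Marker levels differed between groups. Scnn1a averaged 1.11 FPKM with mifepristone and NaCl, 2.08 with mifepristone alone, 0.405 with vehicle and NaCl, and 0.578 with vehicle alone. Pax2 averaged 32.8, 6.50, 52.9 and 8.84 FPKM in the same order. None of 7 fibroblast, 6 endothelial or 4 leukocyte markers passed. Long transcripts were lower than in the rest of their group most of all in vehicle A and mifepristone C (over genes, exon length and deviation from the group mean had Spearman rho of -0.44 and -0.51, against -0.29 to 0.46 in the other libraries), and the matrix genes are long, with a median exon length of 6870 bases among those tested against 3596 bases among all tested genes. Their median deviation was -0.105 in vehicle A and -0.137 in mifepristone C on the log2 scale.

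Basement membrane genes and glycoproteins made up most of the matrix signal of these cells, while fibrillar collagens were close to 0. All 51 genes together summed to 978 FPKM with mifepristone and NaCl, 791 with mifepristone alone, 1112 with vehicle and NaCl, and 1173 with vehicle alone. The 19 basement membrane genes summed to 401 ± 26.6 FPKM with mifepristone and NaCl, 320.3 ± 37.3 with mifepristone alone, 523 ± 20.6 with vehicle and NaCl, and 408 ± 37.2 with vehicle alone (SD, n = 3 each). The 5 fibrillar collagens, which form the fibres of the interstitium, summed to 0.221 FPKM with mifepristone and NaCl, 0.268 with mifepristone alone, 0.281 with vehicle and NaCl, and 0.30 with vehicle alone. Their Col3a1 and Col1a2 never had more than 1 and 2 reads in a library. The 8 glycoproteins summed to 347 ± 6.99 FPKM with mifepristone and NaCl, 337 ± 8.18 with mifepristone alone, 419 ± 2.86 with vehicle and NaCl, and 539 ± 16.3 with vehicle alone, and Spp1 was the highest of them in each group. Crosslinking enzymes and proteases moved over a wide range. Crosslinking enzymes summed to 118 FPKM with mifepristone and NaCl, 6.87 with mifepristone alone, 22.4 with vehicle and NaCl, and 8.21 with vehicle alone. Proteases summed to 10.3 FPKM with mifepristone and NaCl, 21.2 with mifepristone alone, 65.5 with vehicle and NaCl, and 133 with vehicle alone. Each of these sums was carried almost wholly by 1 gene, Loxl4 among the crosslinking enzymes and Adamts1 among the proteases.

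**Figure D1:**
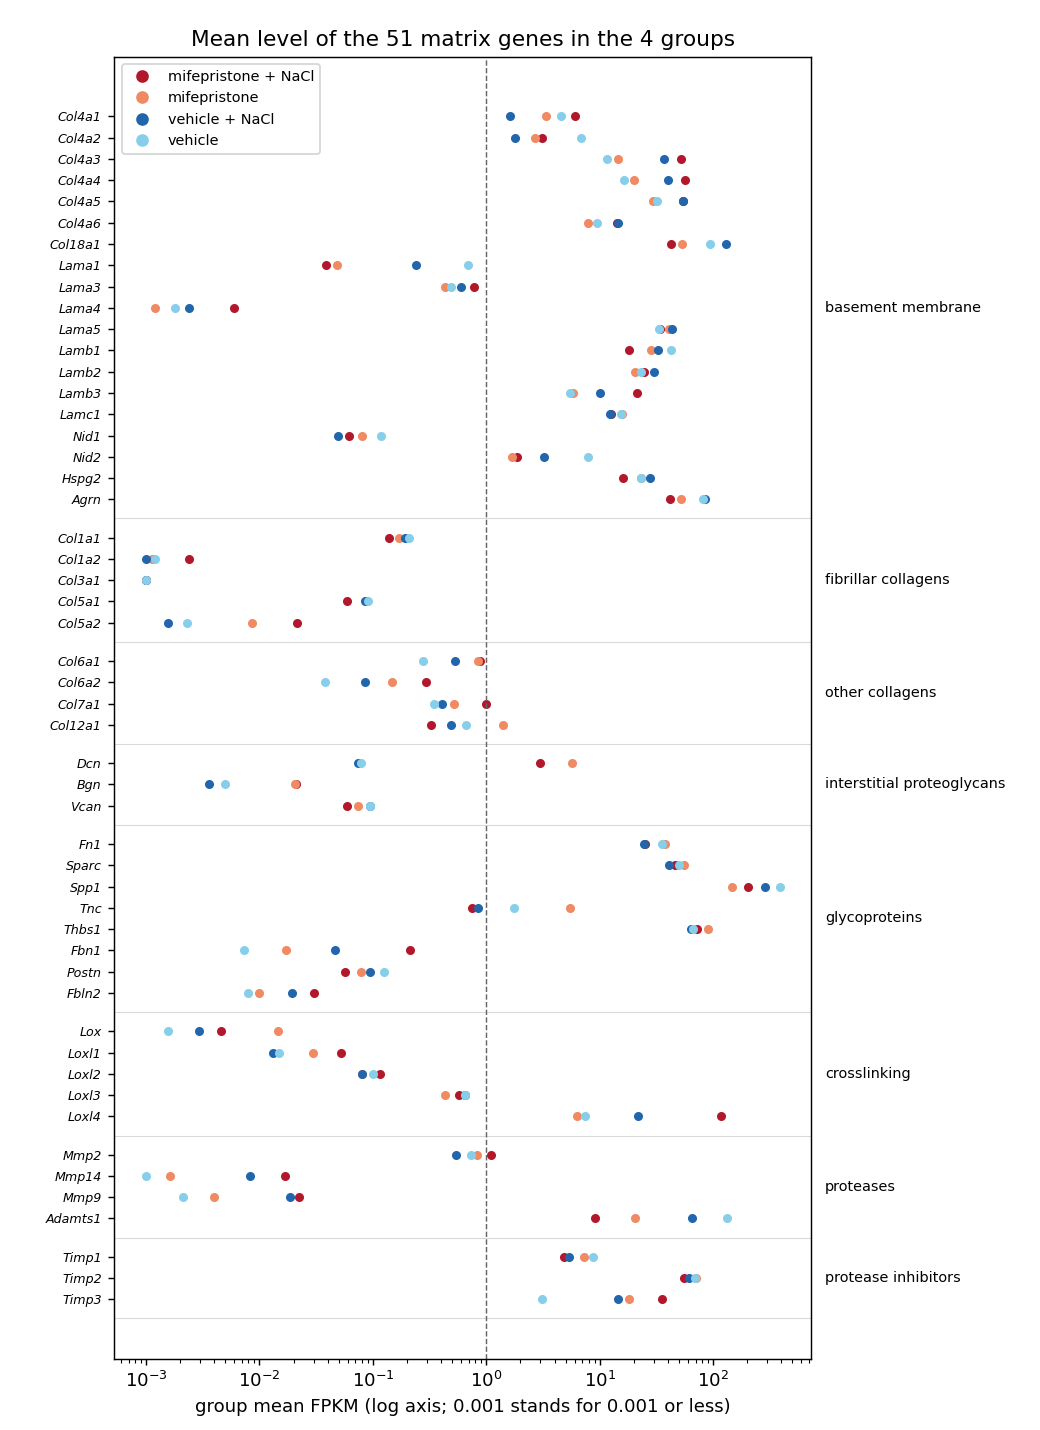
Mean FPKM of the 51 matrix genes (log axis, values at or below 0.001 drawn at 0.001) in the 4 groups, 3 libraries each, ordered by class, with a dashed line at 1 FPKM. The 5 fibrillar collagens lie left of the line in each group, and 15 of the 19 basement membrane genes lie right of it in each group.

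Of the 51 genes 28 passed the filter: 15 of 19 in the basement membrane, 0 of 5 fibrillar collagens, 1 of 4 other collagens (Col12a1), 1 of 3 proteoglycans (Dcn), 5 of 8 glycoproteins, 1 of 5 crosslinking enzymes (Loxl4), 2 of 4 proteases (Adamts1 and Mmp2) and all 3 inhibitors. In 24 of the 28 every library was at or above 1 FPKM. The other 4 passed only through the groups where they were high: Dcn in both mifepristone groups, Col12a1 in the mifepristone group without NaCl, Mmp2 in the mifepristone group with NaCl, and Tnc in both groups without NaCl. These had to differ between some groups, so counts over the 28 genes are a description only.

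More of the 28 tested matrix genes than not were called in each comparison, in both directions, and outside the interaction the same held for all tested genes. Without NaCl, limma called 8 of the 28 higher and 9 lower in mifepristone cells than in vehicle cells (adjusted p under 0.05), against 28.3% of all tested genes called higher and 31.5% called lower, 59.7% in all. With NaCl, 10 were higher and 9 lower in mifepristone cells, against 26.8% and 31.9% of all tested genes, 58.7% in all. NaCl against none gave 9 higher and 13 lower in vehicle cells, with 25.2% and 31.5% of all genes (56.7% in all), and 12 higher and 12 lower in mifepristone cells, with 24.5% and 34.2% of all genes (58.7% in all). The median log2 fold change of the 28 genes was 0.014 for mifepristone without NaCl, -0.014 for mifepristone with NaCl, -0.13 for NaCl in vehicle cells and -0.26 for NaCl in mifepristone cells, where all tested genes had -0.011, -0.034, -0.024 and -0.058. The interaction, which is the mifepristone effect with NaCl minus that without, was called higher for 7 genes and lower for 9, against 13.6% and 17.5% of all genes, 31.1% in all. The 3 libraries of a group did not overlap those of the other for 16 genes with mifepristone without NaCl, 22 with mifepristone with NaCl, 22 with NaCl in vehicle cells and 23 with NaCl in mifepristone cells, against 59.3%, 71.2%, 67.9% and 60.8% of all tested genes. Comparisons share groups: each group of 3 libraries enters a mifepristone and a NaCl comparison. Without vehicle A and mifepristone C together, the counts higher and lower were 9 and 12 for mifepristone without NaCl (31.1% and 33.4% of all genes), 11 and 11 for mifepristone with NaCl (30.9% and 37.9%), 9 and 14 for NaCl in vehicle cells (28.4% and 32.9%), 11 and 15 for NaCl in mifepristone cells (27.4% and 38.1%), and 7 and 11 for the interaction (20.4% and 25.7%), so that calls among all genes were more frequent too. With median-ratio scaling the interaction was called higher for 7 genes and lower for 6 (15.7% and 15.5% of all genes). The count of lower interaction calls was 5 without mifepristone + NaCl B, mifepristone B, vehicle + NaCl B, vehicle + NaCl C or vehicle B, where 13.9% to 14.5% of all genes were called lower.

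**Figure D2:**
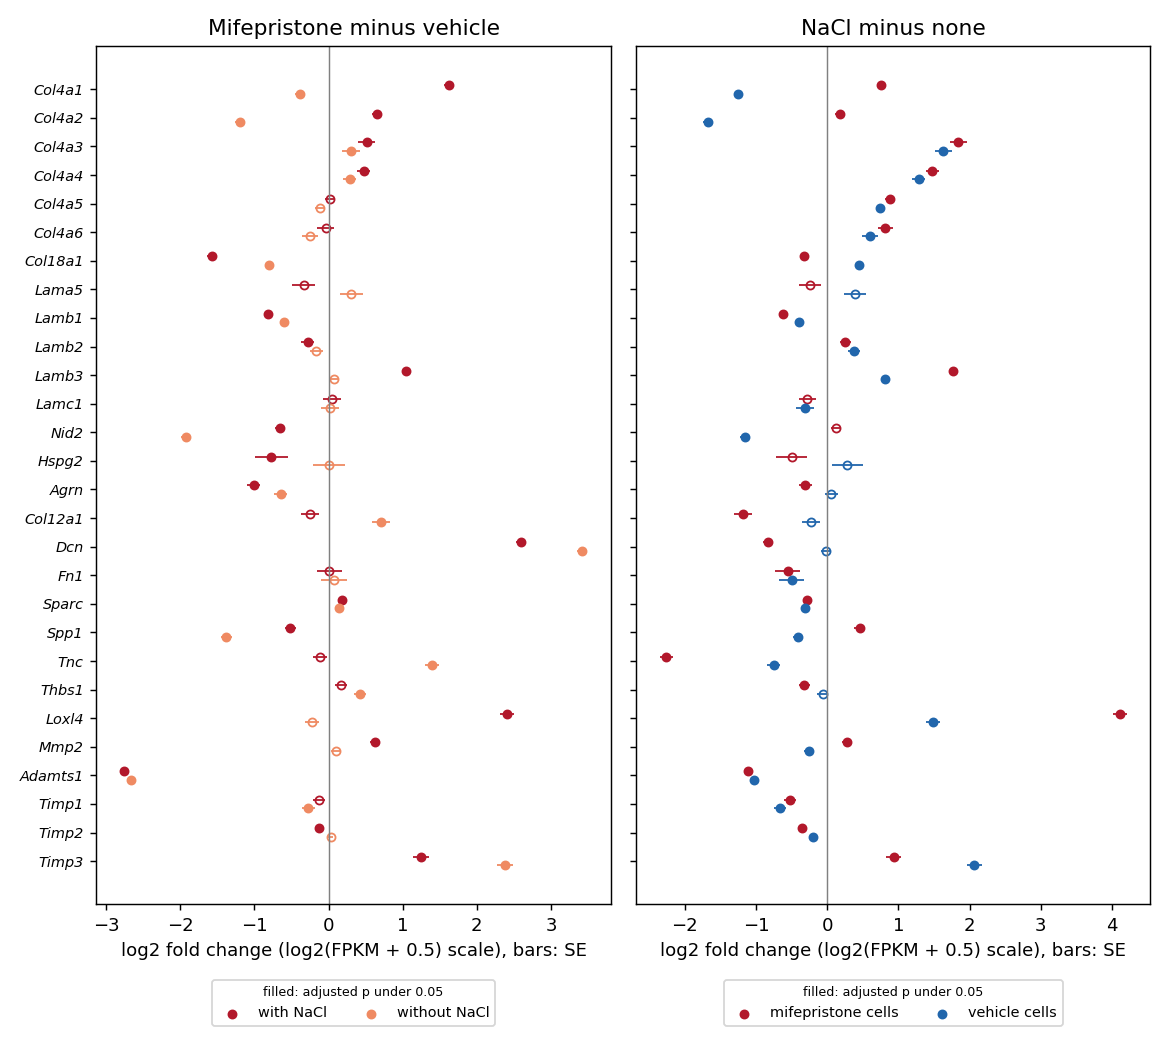
Log2 fold changes with SE (bars) of the 28 tested matrix genes on the log2(FPKM + 0.5) scale, mifepristone minus vehicle on the left, with and without NaCl, and NaCl minus none on the right, in mifepristone and in vehicle cells. Filled points passed an adjusted p under 0.05. Col4a1 and Col4a2 lie on opposite sides of 0 with and without NaCl in the left panel, and Loxl4 reaches 4.11 in mifepristone cells in the right panel.

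The collagen IV chains split into pairs. Col4a1 and Col4a2, the chains of the most widespread collagen IV network, were highest in different groups: Col4a1 with mifepristone and NaCl, Col4a2 with vehicle alone. Col4a1 (chr8:11198423-11312826 on GRCm38, minus strand) had 6.15, 5.72 and 6.21 FPKM with mifepristone and NaCl, 3.50, 3.46 and 3.10 with mifepristone alone, 1.56, 1.68 and 1.61 with vehicle and NaCl, and 4.09, 4.63 and 4.87 with vehicle alone. Col4a2 (chr8:11312805-11449287, plus strand) had 3.21, 2.85 and 3.20 FPKM with mifepristone and NaCl, 2.83, 2.80 and 2.41 with mifepristone alone, 1.79, 1.84 and 1.72 with vehicle and NaCl, and 6.24, 6.87 and 7.25 with vehicle alone. No group overlapped another for Col4a1, and for both genes every vehicle + NaCl library lay below every library of the other groups. Mifepristone lowered Col4a1 1.30-fold without NaCl (log2 fold change -0.38, SE 0.064, limma adjusted p = 0.000365) and raised it 3.08-fold with NaCl (log2 fold change 1.62, SE 0.064, limma adjusted p = 2.75e-09). Col4a2 moved the same way, 2.29-fold lower without NaCl (log2 fold change -1.20, SE 0.070, limma adjusted p = 7.32e-08) and 1.57-fold higher with NaCl (log2 fold change 0.65, SE 0.070, limma adjusted p = 1.09e-05). The mifepristone effect thus differed with NaCl for both genes, by 2.01 log2 units for Col4a1 (SE 0.091, limma adjusted p = 1.59e-07) and 1.85 for Col4a2 (SE 0.099, limma adjusted p = 4.14e-07). NaCl lowered both in vehicle cells, Col4a1 2.37-fold (log2 fold change -1.25, SE 0.064, limma adjusted p = 4.14e-08) and Col4a2 3.19-fold (log2 fold change -1.67, SE 0.070, limma adjusted p = 7.89e-09). With voom on the recovered reads, Col4a1 rose 3.82-fold with mifepristone under NaCl. Col4a2 fell 3.92-fold with NaCl in vehicle cells by the same fit. In mifepristone cells NaCl raised Col4a1 1.69-fold (log2 fold change 0.76, SE 0.064, limma adjusted p = 1.73e-06). The Col4a2 difference there was 0.18 log2 units (limma adjusted p = 0.0499), and it was no longer called without mifepristone + NaCl A or C, without mifepristone B or C, without any 1 vehicle + NaCl library or without vehicle B, at 0.11 to 0.20 log2 units.

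**Figure D3:**
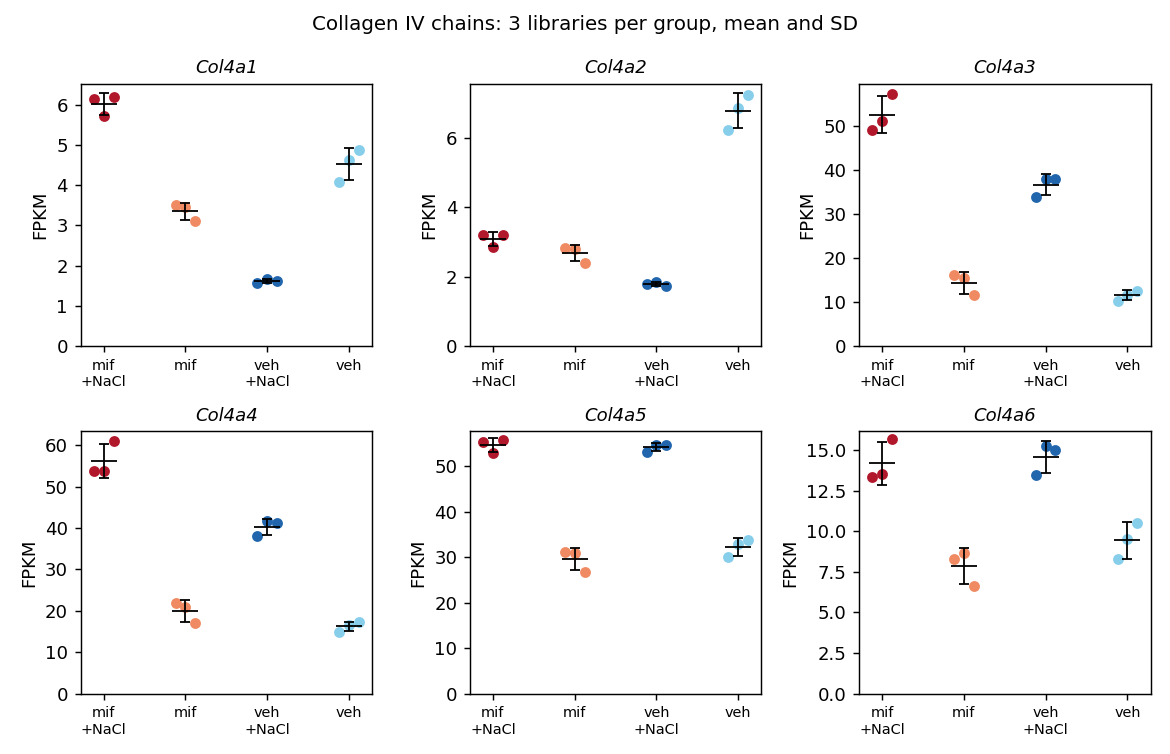
FPKM of the 6 collagen IV genes in each library (points), with group mean and SD (lines), 3 libraries per group, axes from 0. Col4a1 and Col4a2 are lowest with vehicle and NaCl, while Col4a3, Col4a4, Col4a5 and Col4a6 are higher in both NaCl groups than in both groups without it.

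Col4a1 and Col4a2 are read in opposite directions from start sites 21 bases apart on chromosome 8, and their annotated first bases overlap between those sites. The windows of 300 bases around each start are shown because these neighbours changed in unequal amounts, and they are RefSeq sequences on GRCm38.p6. Capitals mark the 78 bases, chr8:11312777-11312854, that both windows hold, on opposite strands.
Col4a1 (chr8:11312777-11313076, minus strand): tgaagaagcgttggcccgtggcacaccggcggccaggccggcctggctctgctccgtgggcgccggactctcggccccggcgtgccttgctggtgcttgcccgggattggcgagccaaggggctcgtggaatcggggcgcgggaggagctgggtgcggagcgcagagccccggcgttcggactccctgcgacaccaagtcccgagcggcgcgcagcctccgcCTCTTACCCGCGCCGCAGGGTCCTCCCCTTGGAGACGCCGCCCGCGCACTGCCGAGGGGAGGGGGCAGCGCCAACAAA
Col4a2 (chr8:11312555-11312854, plus strand): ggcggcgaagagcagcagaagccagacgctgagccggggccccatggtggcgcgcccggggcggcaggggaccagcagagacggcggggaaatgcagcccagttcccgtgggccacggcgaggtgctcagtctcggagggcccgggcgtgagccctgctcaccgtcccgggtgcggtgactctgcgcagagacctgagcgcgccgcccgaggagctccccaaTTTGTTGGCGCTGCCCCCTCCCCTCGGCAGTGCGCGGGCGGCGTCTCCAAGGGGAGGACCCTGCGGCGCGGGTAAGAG
Each window holds 1 CCAAT on either strand, a motif found in 37.4% of 32851 RefSeq windows of this length, and the shared bases hold 1 GGGCGG, found in 35.7%. Matches of letters are a description and not binding sites. The ratio of Col4a1 to Col4a2 FPKM was 1.95 ± 0.048 with mifepristone and NaCl, 1.25 ± 0.032 with mifepristone alone, 0.907 ± 0.033 with vehicle and NaCl, and 0.667 ± 0.011 with vehicle alone (SD, n = 3 each). No groups overlapped, so the ratio was higher in mifepristone cells both times and higher with NaCl both times, with p = 0.1 each, the smallest that an exact two-sided permutation test of 3 against 3 allows. The strand setting of the counting is not given in the sources used here, and reads at the shared start could fall to either gene.

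Col4a3 and Col4a4, a pair on chromosome 1 whose gene starts lie 72 bases apart, rose with NaCl in both kinds of cells. Col4a3 (chr1:82586921-82722059, GRCm38) had 49.2, 51.2 and 57.3 FPKM with mifepristone and NaCl, 16.2, 15.5 and 11.6 with mifepristone alone, 33.8, 38.0 and 38.0 with vehicle and NaCl, and 10.3, 11.7 and 12.6 with vehicle alone. Col4a4 (chr1:82448423-82586849, GRCm38) had 53.7, 53.8 and 61.0 FPKM with mifepristone and NaCl, 21.9, 21.1 and 17.0 with mifepristone alone, 38.2, 41.7 and 41.1 with vehicle and NaCl, and 15.0, 16.5 and 17.3 with vehicle alone. Every library with NaCl lay above every library without it, for both genes. NaCl raised Col4a3 3.58-fold in mifepristone cells (log2 fold change 1.84, SE 0.12, limma adjusted p = 1.81e-07) and 3.09-fold in vehicle cells (log2 fold change 1.63, SE 0.12, limma adjusted p = 6.56e-07). It raised Col4a4 2.77-fold in mifepristone cells (log2 fold change 1.47, SE 0.091, limma adjusted p = 1.41e-07) and 2.44-fold in vehicle cells (log2 fold change 1.29, SE 0.091, limma adjusted p = 5.7e-07). With NaCl, mifepristone cells were also higher than vehicle cells, 1.43-fold for Col4a3 (limma adjusted p = 0.003) and 1.39-fold for Col4a4 (limma adjusted p = 0.000981), and the groups did not overlap. Without NaCl the differences were 0.30 and 0.29 log2 units (limma adjusted p = 0.0448 and 0.0188). The call of Col4a4 was lost without mifepristone A, mifepristone B or vehicle A, at 0.22 to 0.25 log2 units. That of Col4a3 was lost without any single library other than mifepristone + NaCl C, mifepristone C or vehicle C, at 0.21 to 0.31. The Col4a3 call was also lost with no level filter and with a replicate block. The interaction was not called for either gene. Their ratio stayed between 0.678 and 0.951 over the 12 libraries and was higher with NaCl than without in both kinds of cells.

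Col4a5 and Col4a6, a pair on the X chromosome, followed NaCl but passed no mifepristone test. Col4a5 averaged 54.7 ± 1.48 FPKM with mifepristone and NaCl, 29.6 ± 2.44 with mifepristone alone, 54.1 ± 0.874 with vehicle and NaCl, and 32.2 ± 2.003 with vehicle alone (SD, n = 3 each). Col4a6 averaged 14.2 ± 1.32 FPKM with mifepristone and NaCl, 7.84 ± 1.10 with mifepristone alone, 14.6 ± 0.965 with vehicle and NaCl, and 9.43 ± 1.118 with vehicle alone. NaCl raised Col4a5 1.84-fold in mifepristone cells and 1.67-fold in vehicle cells, and Col4a6 1.76-fold and 1.52-fold (limma adjusted p = 3.5e-07, 1.83e-06, 7.07e-05 and 0.000739). The mifepristone differences ran from -0.25 to 0.015 log2 units over both genes and both salt conditions, each with an SE of 0.061 or 0.11. So 4 of the 6 collagen IV genes rose with NaCl in vehicle cells and the remaining pair, Col4a1 and Col4a2, fell.

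Among the tested chains of laminins, the trimers that polymerize into the cell-side network, Lamb3 had the largest changes. Lamb3, a chain of the laminin that anchors epithelia through hemidesmosomes, had 21.1, 20.3 and 22.0 FPKM with mifepristone and NaCl, 5.62, 6.13 and 5.76 with mifepristone alone, 9.65, 10.1 and 10.2 with vehicle and NaCl, and 5.13, 5.49 and 5.88 with vehicle alone. The 3 libraries with both treatments stood above all others, and the mifepristone and vehicle groups without NaCl overlapped. With NaCl, mifepristone raised Lamb3 2.06-fold (log2 fold change 1.05, SE 0.052, limma adjusted p = 1.74e-08), while the difference without NaCl was 0.080 (SE 0.052, limma adjusted p = 0.211), and the interaction was 0.97 (limma adjusted p = 4.91e-06). NaCl raised it 3.42-fold in mifepristone cells (log2 fold change 1.77, SE 0.052, limma adjusted p = 3.37e-10) and 1.75-fold in vehicle cells (log2 fold change 0.81, SE 0.052, limma adjusted p = 2.53e-07). Lamb1, a beta chain shared by many laminins, went the other way and was lower under each treatment. It averaged 18.2 ± 0.501 FPKM with mifepristone and NaCl, 28.1 ± 1.79 with mifepristone alone, 32.5 ± 0.775 with vehicle and NaCl, and 42.9 ± 1.58 with vehicle alone (SD, n = 3 each). Mifepristone lowered it 1.76-fold with NaCl and 1.52-fold without (limma adjusted p = 7.04e-08 and 9.78e-07), and NaCl lowered it 1.53-fold in mifepristone and 1.31-fold in vehicle cells (limma adjusted p = 9.24e-07 and 4.24e-05). Lamb2, the beta chain of mature kidney laminins, averaged 24.7 ± 1.93 FPKM with mifepristone and NaCl, 20.6 ± 1.58 with mifepristone alone, 30.1 ± 0.799 with vehicle and NaCl, and 23.1 ± 2.53 with vehicle alone. It rose 1.30-fold with NaCl in vehicle cells (limma adjusted p = 0.00257). Its ratio to Lamb1 was 1.35 ± 0.082 with mifepristone and NaCl, 0.730 ± 0.010 with mifepristone alone, 0.925 ± 0.0062 with vehicle and NaCl, and 0.538 ± 0.040 with vehicle alone.

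Other Lamb2 calls were small, -0.28 log2 units for mifepristone with NaCl, lost without mifepristone + NaCl B (-0.24), and 0.26 for NaCl in mifepristone cells, lost without mifepristone + NaCl C or mifepristone C (0.20 and 0.19). Lama5, the main alpha chain of mature tubule basement membranes, averaged 34.3 ± 4.44 FPKM with mifepristone and NaCl, 40.9 ± 7.27 with mifepristone alone, 43.2 ± 3.84 with vehicle and NaCl, and 33.1 ± 6.03 with vehicle alone, and none of the 4 pairwise comparisons passed. Lamc1, the gamma chain of most laminins, averaged 12.7 ± 1.07 FPKM with mifepristone and NaCl, 15.6 ± 2.77 with mifepristone alone, 12.2 ± 0.657 with vehicle and NaCl, and 15.3 ± 1.72 with vehicle alone. Its only call was for NaCl in vehicle cells at -0.31 log2 units (limma adjusted p = 0.0498), and it was lost without any single NaCl library, vehicle B or vehicle C, at -0.33 to -0.24. The Lamc1 call was also lost with no level filter, median-ratio scaling and a replicate block.

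Nid2 and Col18a1 fell with mifepristone, and Agrn did so too. Nid2, a nidogen that links laminin to collagen IV, had 1.92, 1.73 and 1.98 FPKM with mifepristone and NaCl, 1.78, 1.81 and 1.49 with mifepristone alone, 3.22, 3.29 and 3.18 with vehicle and NaCl, and 7.26, 8.12 and 8.06 with vehicle alone. Every mifepristone library lay below every vehicle library. Mifepristone lowered Nid2 1.57-fold with NaCl (log2 fold change -0.65, SE 0.067, limma adjusted p = 7.74e-06) and 3.80-fold without NaCl (log2 fold change -1.92, SE 0.067, limma adjusted p = 1.13e-09), with an interaction of 1.27 (limma adjusted p = 4.24e-06). NaCl lowered it 2.23-fold in vehicle cells (log2 fold change -1.15, SE 0.067, limma adjusted p = 1.11e-07), and in mifepristone cells the difference was 0.12 (SE 0.067, limma adjusted p = 0.153). For mifepristone, voom on the recovered reads gave Nid2 -0.74 log2 units with NaCl and -2.22 without. Col18a1, a basement membrane collagen with heparan sulfate chains, had 43.1, 40.5 and 44.9 FPKM with mifepristone and NaCl, 54.1, 55.7 and 50.9 with mifepristone alone, 126, 131 and 129 with vehicle and NaCl, and 88.4, 94.2 and 99.9 with vehicle alone. Its groups stood apart from each other, lowest with both treatments and highest with NaCl alone. Mifepristone lowered Col18a1 2.98-fold with NaCl (log2 fold change -1.58, SE 0.056, limma adjusted p = 1.07e-09) and 1.75-fold without (log2 fold change -0.81, SE 0.056, limma adjusted p = 2.85e-07). NaCl lowered it 1.25-fold in mifepristone cells and raised it 1.37-fold in vehicle cells (limma adjusted p = 0.000513 and 4.55e-05), and the interaction was -0.77 (limma adjusted p = 4.02e-05).

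The large heparan sulfate proteoglycans agrin and perlecan were both lower with mifepristone under NaCl. Agrn averaged 41.9 ± 2.83 FPKM with mifepristone and NaCl, 52.1 ± 6.01 with mifepristone alone, 84.9 ± 2.96 with vehicle and NaCl, and 81.6 ± 7.08 with vehicle alone (SD, n = 3 each). It fell 2.02-fold with mifepristone under NaCl and 1.56-fold without NaCl (limma adjusted p = 2.03e-06 and 8.09e-05). Its fall with NaCl in mifepristone cells, -0.31 log2 units, was not called without mifepristone + NaCl B or mifepristone B (-0.26 and -0.25). Hspg2, the perlecan gene, averaged 16.1 ± 2.68 FPKM with mifepristone and NaCl, 23.3 ± 6.34 with mifepristone alone, 27.7 ± 2.76 with vehicle and NaCl, and 23.0 ± 5.50 with vehicle alone. Under NaCl it fell 1.71-fold with mifepristone (log2 fold change -0.77, SE 0.22, limma adjusted p = 0.0103), and its other comparisons did not pass. In all, mifepristone without NaCl raised 2 and lowered 6 of the 15 tested basement membrane genes (median -0.16 log2 units), against 28.3% and 31.5% of all tested genes, and with NaCl it raised 5 and lowered 6 (median -0.040), against 26.8% and 31.9%. NaCl raised 7 and lowered 5 in vehicle cells (median 0.38), against 25.2% and 31.5% of all tested genes, and raised 8 and lowered 3 in mifepristone cells (median 0.18), against 24.5% and 34.2%.

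Decorin had the largest rise with mifepristone of the 28 tested genes, and it passed the filter only through the mifepristone groups. Dcn, a small proteoglycan that binds collagen fibrils (chr10:97479609-97518143, GRCm38), had 2.89, 3.22 and 2.82 FPKM with mifepristone and NaCl, 5.49, 5.44 and 6.13 with mifepristone alone, 0.0859, 0.0534 and 0.0813 with vehicle and NaCl, and 0.0775, 0.107 and 0.0493 with vehicle alone. The vehicle libraries sat near 0 and the mifepristone libraries stood apart from them. Dcn was 10.7-fold higher with mifepristone without NaCl (log2 fold change 3.42, SE 0.069, limma adjusted p = 2.18e-11) and 6.05-fold higher with NaCl (log2 fold change 2.60, SE 0.069, limma adjusted p = 1.14e-10) on the log2(FPKM + 0.5) scale. With no level filter, needing only a value above 0 in at least 3 libraries, the limma adjusted p was 1.3e-10 without NaCl and 5.89e-10 with it. The log2(FPKM + 0.5) scale gives smaller changes from so low a level: voom on the recovered reads gave 71.4-fold (log2 6.16, SE 0.27) and 39.3-fold (5.30, SE 0.27). The vehicle libraries held only 7, 10 and 5 reads without NaCl and 8, 5 and 8 with it. The size of these folds is therefore not resolved. Summed fibroblast markers ran from 0.0960 to 0.143 FPKM with mifepristone and NaCl, 0.0762 to 0.124 with mifepristone alone, 0.0155 to 0.0709 with vehicle and NaCl, and 0.0728 to 0.1003 with vehicle alone. None of those 7 markers had more than 15 reads in a library, with Tcf21 at 0 or 1 read. The other proteoglycans, Bgn and Vcan, had at most 8 and 79 reads. Vcan, fitted by voom with the genes below the filter, was called lower with mifepristone under NaCl (-0.62 log2 units, voom adjusted p = 0.0493). Without NaCl its difference of -0.44 was not called (voom adjusted p = 0.136). In mifepristone cells NaCl lowered Dcn 1.78-fold (log2 fold change -0.83, SE 0.069, limma adjusted p = 1.42e-06).

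The matrix glycoproteins changed in both directions. Tnc, tenascin-C, a matrix protein of development and injury, had 0.758, 0.704 and 0.771 FPKM with mifepristone and NaCl, 5.98, 5.86 and 4.60 with mifepristone alone, 0.815, 0.947 and 0.771 with vehicle and NaCl, and 1.59, 1.85 and 1.84 with vehicle alone. It was highest with mifepristone alone, and with NaCl both groups stayed below 1 FPKM. Without NaCl mifepristone cells were 2.63-fold higher (log2 fold change 1.40, SE 0.093, limma adjusted p = 2.24e-07), with NaCl the difference was -0.11 (limma adjusted p = 0.336), and the interaction was -1.51 (limma adjusted p = 1.34e-05). NaCl lowered Tnc 4.78-fold in mifepristone cells (log2 fold change -2.26, SE 0.093, limma adjusted p = 5.31e-09) and 1.68-fold in vehicle cells (log2 fold change -0.75, SE 0.093, limma adjusted p = 4.93e-05). Voom on the recovered reads gave larger falls of Tnc with NaCl, 7.29-fold in mifepristone cells and 2.16-fold in vehicle cells. Tnc passed the filter only through the groups without NaCl, and with no level filter the limma adjusted p was 2.66e-08 in mifepristone cells and 0.000132 in vehicle cells. Spp1, osteopontin, a secreted phosphoprotein that binds integrins, had 210.3, 210.3 and 188 FPKM with mifepristone and NaCl, 139, 142 and 162 with mifepristone alone, 295, 284 and 289 with vehicle and NaCl, and 411, 382 and 361 with vehicle alone. Its groups did not overlap, and the order of levels was vehicle alone, vehicle with NaCl, mifepristone with NaCl, mifepristone alone. Mifepristone lowered Spp1 1.43-fold with NaCl (log2 fold change -0.51, SE 0.072, limma adjusted p = 8.91e-05) and 2.60-fold without (log2 fold change -1.38, SE 0.072, limma adjusted p = 2.88e-08). NaCl raised it 1.37-fold in mifepristone cells and lowered it 1.33-fold in vehicle cells (limma adjusted p = 0.000246 and 0.000592).

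Smaller changes were seen in the other abundant glycoproteins. Thbs1, thrombospondin-1, an activator of latent TGF-beta, had 66.9, 72.5 and 76.5 FPKM with mifepristone and NaCl, 94.8, 96.5 and 79.0 with mifepristone alone, 62.1, 64.4 and 64.9 with vehicle and NaCl, and 63.0, 67.00 and 70.3 with vehicle alone. It was 1.34-fold higher with mifepristone without NaCl (log2 fold change 0.42, SE 0.077, limma adjusted p = 0.000664), where the groups stood apart, and NaCl lowered it 1.25-fold in mifepristone cells (limma adjusted p = 0.0046). Sparc, a collagen-binding glycoprotein, had 45.1, 45.6 and 46.7 FPKM with mifepristone and NaCl, 54.0, 57.6 and 55.9 with mifepristone alone, 40.1, 39.8 and 41.4 with vehicle and NaCl, and 51.4, 50.1 and 49.8 with vehicle alone. It rose with mifepristone by 0.18 log2 units with NaCl and 0.14 without, and fell with NaCl by 0.28 in mifepristone and 0.32 in vehicle cells (limma adjusted p = 0.00111, 0.00431, 3.96e-05 and 2.03e-05). Fn1, fibronectin, had 21.6, 24.8 and 28.5 FPKM with mifepristone and NaCl, 42.2, 42.7 and 27.4 with mifepristone alone, 22.7, 26.3 and 25.0 with vehicle and NaCl, and 29.2, 35.3 and 41.2 with vehicle alone. Mifepristone C and vehicle A were the lowest libraries of their groups for it. NaCl lowered Fn1 1.47-fold in mifepristone cells and 1.41-fold in vehicle cells (limma adjusted p = 0.0184 and 0.0312). The first call was lost without mifepristone + NaCl A, mifepristone A or mifepristone B (-0.46, -0.45 and -0.45 log2 units), the other without vehicle + NaCl A or C or without vehicle B or C (-0.44, -0.51, -0.49 and -0.38). With no level filter the call in vehicle cells was lost too.

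Loxl4, a lysyl oxidase that crosslinks collagen, had the largest NaCl change of the 28 tested genes. Loxl4 (chr19:42593982-42612813, GRCm38, minus strand) had 107, 114 and 130.4 FPKM with mifepristone and NaCl, 6.69, 6.86 and 5.38 with mifepristone alone, 20.03, 22.0 and 22.9 with vehicle and NaCl, and 6.81, 7.83 and 7.68 with vehicle alone. The libraries with both treatments stood far above all others, the vehicle + NaCl libraries came next, and the groups without NaCl overlapped. NaCl raised Loxl4 17.3-fold in mifepristone cells (log2 fold change 4.11, SE 0.10, limma adjusted p = 7.11e-11) and 2.79-fold in vehicle cells (log2 fold change 1.48, SE 0.10, limma adjusted p = 3.36e-07). Mifepristone raised it 5.31-fold with NaCl (log2 fold change 2.41, SE 0.10, limma adjusted p = 3.47e-09), while without NaCl the difference was -0.23 (SE 0.098, limma adjusted p = 0.0686). The interaction of 2.63 log2 units (SE 0.14, limma adjusted p = 3.92e-07) was the largest of the 28 genes. The endothelial markers, all under 1 FPKM, summed to between 0.628 and 0.737 FPKM with mifepristone and NaCl, 0.207 and 0.255 with mifepristone alone, 0.3202 and 0.439 with vehicle and NaCl, and 0.0959 and 0.172 with vehicle alone, with Kdr and Tie1 at 2 reads or fewer. Cdh5 averaged 0.305 FPKM with mifepristone and NaCl, 0.0267 with mifepristone alone, 0.179 with vehicle and NaCl, and 0.0236 with vehicle alone, and Pecam1 averaged 0.191 FPKM with mifepristone and NaCl, 0.0179 with mifepristone alone, 0.0692 with vehicle and NaCl, and 0.00359 with vehicle alone. Like Loxl4, both were highest with both treatments, at 73 and 58 reads at most. Tek, at most 14 reads, was also highest there (0.0439 FPKM). Plvap, at most 17 reads, was instead highest with mifepristone alone, at 0.161 FPKM against 0.117 with mifepristone and NaCl. The leukocyte markers summed to between 0.0670 and 0.1002 FPKM with mifepristone and NaCl, 0.00578 and 0.0156 with mifepristone alone, 0.297 and 0.339 with vehicle and NaCl, and 0.0580 and 0.0719 with vehicle alone. Their part in the results was not tested.

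The start windows of Loxl4 and Adamts1, the genes with the widest range in the crosslinking and protease classes, are shown from RefSeq on GRCm38.p6. Capitals mark GGGCGG on the printed strand in Loxl4, 3 times, and TATAAA in Adamts1, once. The Adamts1 window holds GGGCGG 3 times too, left in small letters, so this motif does not set the 2 windows apart.
Loxl4 (chr19:42612757-42613056, minus strand): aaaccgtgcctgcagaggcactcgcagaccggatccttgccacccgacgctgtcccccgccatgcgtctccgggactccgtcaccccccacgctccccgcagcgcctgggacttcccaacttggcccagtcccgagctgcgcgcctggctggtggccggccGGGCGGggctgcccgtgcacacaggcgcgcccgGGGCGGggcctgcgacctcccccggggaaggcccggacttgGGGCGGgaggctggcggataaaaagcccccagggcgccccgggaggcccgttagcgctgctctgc
Adamts1 (chr16:85803064-85803363, minus strand): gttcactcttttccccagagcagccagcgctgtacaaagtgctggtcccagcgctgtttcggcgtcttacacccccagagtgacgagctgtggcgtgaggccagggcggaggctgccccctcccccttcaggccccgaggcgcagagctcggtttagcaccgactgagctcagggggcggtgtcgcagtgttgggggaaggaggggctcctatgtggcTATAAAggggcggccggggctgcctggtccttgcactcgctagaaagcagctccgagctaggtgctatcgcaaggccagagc
On either strand GGGCGG stood in 25 of the 33 matrix genes with a RefSeq window and in 35.7% of all windows, CCAAT in 14 of 33 and 37.4%, TATAAA in 5 of 33 and 13.6%, and TGGAAA in 11 of 33 and 21.4%. A matrix gene counted if any of its windows held the motif, while the share is over single windows of all genes, expressed or not. The counts and shares are thus not like for like, and a difference between them was not tested.

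Adamts1 fell under both treatments, to its lowest level with both. Adamts1, a secreted metalloprotease that cuts versican and aggrecan (chr16:85793827-85803113, GRCm38), had 9.15, 9.70 and 8.64 FPKM with mifepristone and NaCl, 21.4, 21.0 and 18.9 with mifepristone alone, 64.5, 65.2 and 65.1 with vehicle and NaCl, and 128, 133 and 136 with vehicle alone. The 4 groups did not overlap. Mifepristone lowered it 6.78-fold with NaCl (log2 fold change -2.76, SE 0.053, limma adjusted p = 1.46e-11) and 6.36-fold without (log2 fold change -2.67, SE 0.053, limma adjusted p = 2.05e-11). NaCl lowered it 2.16-fold in mifepristone cells (log2 fold change -1.11, SE 0.053, limma adjusted p = 1.56e-08) and 2.03-fold in vehicle cells (log2 fold change -1.02, SE 0.053, limma adjusted p = 4.14e-08). The interaction was -0.093 (SE 0.074, limma adjusted p = 0.367). Mmp2, gelatinase A, which cuts denatured collagen and collagen IV, had 1.08, 1.07 and 1.16 FPKM with mifepristone and NaCl, 0.789, 0.822 and 0.863 with mifepristone alone, 0.626, 0.534 and 0.453 with vehicle and NaCl, and 0.760, 0.691 and 0.745 with vehicle alone. Under NaCl the mifepristone group stood above the vehicle group, 1.55-fold higher (log2 fold change 0.63, SE 0.069, limma adjusted p = 1.25e-05), and voom on the recovered reads gave 1.09 log2 units. Mmp2 passed the filter only through the mifepristone + NaCl libraries, and with no level filter the limma adjusted p was 2.26e-05. Without NaCl those groups differed by 0.10 (limma adjusted p = 0.215). Mmp14 and Mmp9, the membrane-bound and the other gelatinase members of the class, had at most 5 reads in any library.

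**Figure D4:**
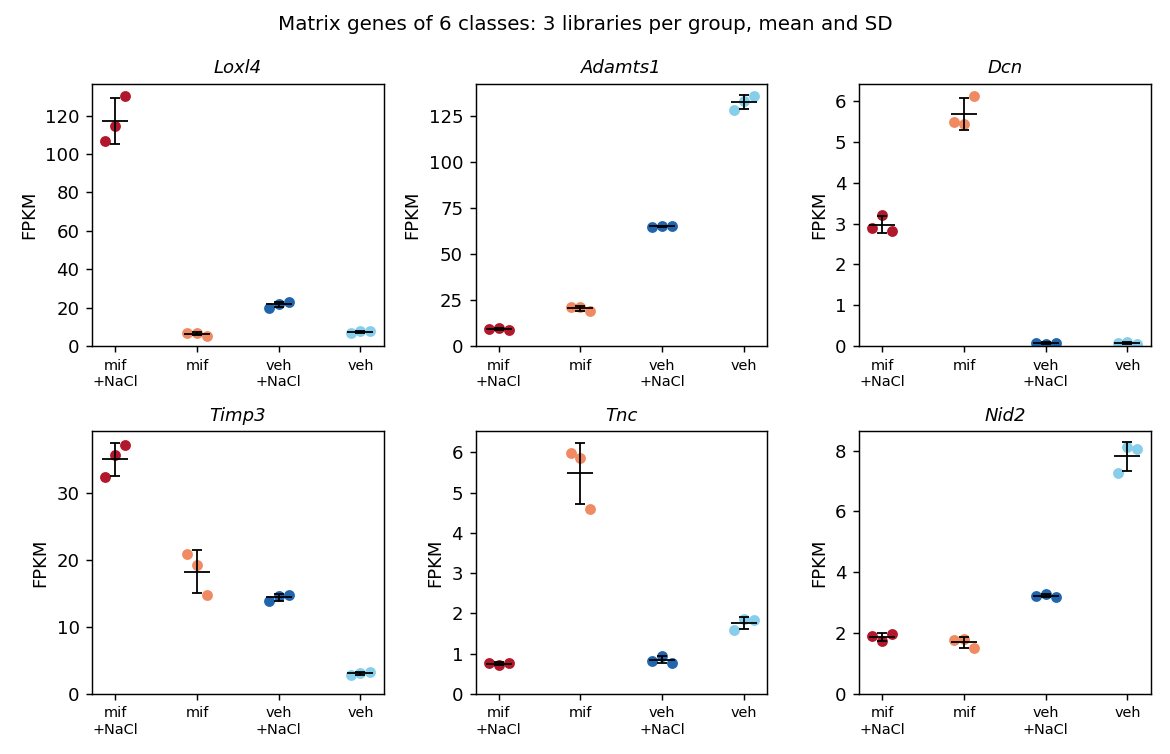
FPKM in each library (points), with group mean and SD (lines), of 6 matrix genes of 6 classes, 3 libraries per group, axes from 0. Loxl4 is highest with both treatments, Adamts1 and Nid2 are highest with vehicle alone, Dcn is near 0 in both vehicle groups, and Tnc is highest with mifepristone alone.

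Of the metalloprotease inhibitors, Timp3 rose with both treatments, while Timp1 and Timp2 fell with NaCl. Timp3, an inhibitor that stays bound to the matrix, had 32.4, 35.7 and 37.2 FPKM with mifepristone and NaCl, 20.9, 19.2 and 14.8 with mifepristone alone, 13.9, 14.6 and 14.9 with vehicle and NaCl, and 2.86, 3.14 and 3.25 with vehicle alone. The vehicle libraries were lowest, those with both treatments highest, and the other groups overlapped between them. Mifepristone raised Timp3 2.38-fold with NaCl (log2 fold change 1.25, SE 0.11, limma adjusted p = 1.53e-06) and 5.20-fold without (log2 fold change 2.38, SE 0.11, limma adjusted p = 8.02e-09), with an interaction of -1.13 (limma adjusted p = 0.000267). NaCl raised it 1.91-fold in mifepristone cells (log2 fold change 0.93, SE 0.11, limma adjusted p = 1.87e-05) and 4.18-fold in vehicle cells (log2 fold change 2.06, SE 0.11, limma adjusted p = 3.99e-08). Timp2, the most abundant of the 3 inhibitors, had 56.6, 54.3 and 56.4 FPKM with mifepristone and NaCl, 70.4, 73.1 and 70.1 with mifepristone alone, 60.4, 60.5 and 61.4 with vehicle and NaCl, and 71.0, 69.0 and 69.5 with vehicle alone. NaCl lowered it by 0.35 log2 units in mifepristone and 0.20 in vehicle cells (limma adjusted p = 4.55e-06 and 0.00045), and under NaCl it was 0.12 lower with mifepristone (limma adjusted p = 0.0078). The ratio of Timp3 to Timp2 FPKM was 0.631 ± 0.049 with mifepristone and NaCl, 0.257 ± 0.044 with mifepristone alone, 0.238 ± 0.0072 with vehicle and NaCl, and 0.0442 ± 0.0035 with vehicle alone. Timp1 had 5.33, 4.69 and 4.56 FPKM with mifepristone and NaCl, 6.59, 7.29 and 7.72 with mifepristone alone, 5.09, 5.39 and 5.58 with vehicle and NaCl, and 9.72, 7.80 and 8.89 with vehicle alone. Both NaCl groups lay below their groups without NaCl, by 0.52 log2 units in mifepristone and 0.66 in vehicle cells (limma adjusted p = 0.00028 and 5.45e-05). Its fall with mifepristone without NaCl, -0.27 log2 units, was not called without mifepristone A or vehicle A (-0.21 and -0.20).

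Col12a1, a collagen that sits on fibril surfaces, was the 1 other collagen that passed the filter. It had 0.318, 0.319 and 0.347 FPKM with mifepristone and NaCl, 1.59, 1.59 and 1.017 with mifepristone alone, 0.438, 0.532 and 0.489 with vehicle and NaCl, and 0.524, 0.648 and 0.798 with vehicle alone. It was highest with mifepristone alone, 1.63-fold above vehicle (log2 fold change 0.70, SE 0.12, limma adjusted p = 0.00054), and NaCl lowered it 2.27-fold in mifepristone cells (log2 fold change -1.18, SE 0.12, limma adjusted p = 1.1e-05), where voom on the recovered reads gave -2.05 log2 units. For mifepristone without NaCl voom gave 1.06 log2 units. Col12a1 passed the filter only through the mifepristone libraries without NaCl, and with no level filter the limma adjusted p was 0.00119 for mifepristone and 2.97e-05 for NaCl.

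The 23 genes below the filter were read from the recovered reads, with 3 reads, equal to 0.0609 to 0.0715 CPM, as the limit a count of 0 allows. In a voom fit of the 18349 genes with at least 10 reads in at least 3 libraries, chosen after seeing the data, 13 of the 23 could be fitted. Mifepristone without NaCl gave 3 higher and 3 lower among them, against 27.1% and 28.5% of all fitted genes, and with NaCl 6 higher and 3 lower, against 31.5% and 24.6%. NaCl gave 3 higher and 2 lower in vehicle cells, against 21.6% and 31.3%, and 5 higher and 0 lower in mifepristone cells, against 27.2% and 29.2%. The interaction gave 3 higher and 1 lower, against 15.5% and 11.7%.

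Lama1, the alpha chain of early embryonic laminin, fell with mifepristone. It had 13, 16 and 22 reads with mifepristone and NaCl, 17, 33 and 15 with mifepristone alone, 103, 99 and 112 with vehicle and NaCl, and 260, 296 and 337 with vehicle alone. All mifepristone libraries lay below all vehicle libraries. The fall was 6.005-fold with NaCl (log2 fold change -2.59, SE 0.26, voom adjusted p = 1.69e-06) and 14.9-fold without (log2 fold change -3.90, SE 0.23, voom adjusted p = 8.54e-09), and NaCl lowered Lama1 2.92-fold in vehicle cells (log2 fold change -1.55, SE 0.13, voom adjusted p = 4.14e-07). Fbn1, the main protein of microfibrils, had 105, 108 and 147 reads with mifepristone and NaCl, 15, 10 and 4 with mifepristone alone, 24, 24 and 29 with vehicle and NaCl, and 3, 5 and 4 with vehicle alone. The libraries with both treatments stood above all others. NaCl raised Fbn1 13.9-fold in mifepristone cells (log2 fold change 3.79, SE 0.33, voom adjusted p = 4.87e-07) and 5.71-fold in vehicle cells (log2 fold change 2.51, SE 0.45, voom adjusted p = 0.000377), and mifepristone raised it 4.67-fold with NaCl (log2 fold change 2.22, SE 0.23, voom adjusted p = 2.73e-06). Mifepristone C and every vehicle library without NaCl had under 10 reads, so Fbn1 met the limit of 10 reads only through the other libraries. Its folds with NaCl start from so few reads, in mifepristone and in vehicle cells, that their size is not resolved.

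Collagen VI and VII genes, which had few reads, also rose. Col6a1, a chain of beaded filaments, had 175, 158 and 204 reads with mifepristone and NaCl, 164, 192 and 170 with mifepristone alone, 96, 91 and 134 with vehicle and NaCl, and 52, 41 and 74 with vehicle alone. Its partner Col6a2 had 124, 84 and 132 reads with mifepristone and NaCl, 62, 56 and 58 with mifepristone alone, 29, 37 and 30 with vehicle and NaCl, and 16, 13 and 14 with vehicle alone. For both genes the mifepristone libraries lay above the vehicle libraries in each salt condition. Mifepristone raised Col6a1 1.72-fold with NaCl and 3.06-fold without (voom adjusted p = 0.000438 and 3.92e-06), and Col6a2 3.55-fold and 3.82-fold (voom adjusted p = 1.25e-06 and 1.42e-05). Col7a1, the anchoring fibril collagen under the basement membrane, had 433, 447 and 531 reads with mifepristone and NaCl, 222, 280 and 265 with mifepristone alone, 193, 209 and 168 with vehicle and NaCl, and 138, 143 and 213 with vehicle alone. It rose 2.53-fold with mifepristone under NaCl (log2 fold change 1.34, SE 0.12, voom adjusted p = 8.45e-07). Lama3, the alpha chain that pairs with Lamb3, had 410, 327 and 415 reads with mifepristone and NaCl, 226, 222 and 207 with mifepristone alone, 233, 334 and 320 with vehicle and NaCl, and 194, 226 and 302 with vehicle alone, and mifepristone raised it 1.33-fold under NaCl (log2 fold change 0.41, SE 0.13, voom adjusted p = 0.0162). Col1a1, the most abundant of the fibrillar collagens, had 33, 44 and 47 reads with mifepristone and NaCl, 56, 46 and 57 with mifepristone alone, 61, 50 and 63 with vehicle and NaCl, and 43, 62 and 82 with vehicle alone, and the groups overlapped. No comparison of Col1a1 or Col5a1 was called. Postn was lower with mifepristone, at -0.70 log2 units with NaCl and -0.66 without (voom adjusted p = 0.0279 and 0.0186). Loxl3 was lower with mifepristone without NaCl (-0.58, voom adjusted p = 0.00304). Loxl2 was higher with mifepristone under NaCl (0.57, voom adjusted p = 0.0412). The 10 genes that could not be fitted had at most 12 reads in a library.

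**Figure D5:**
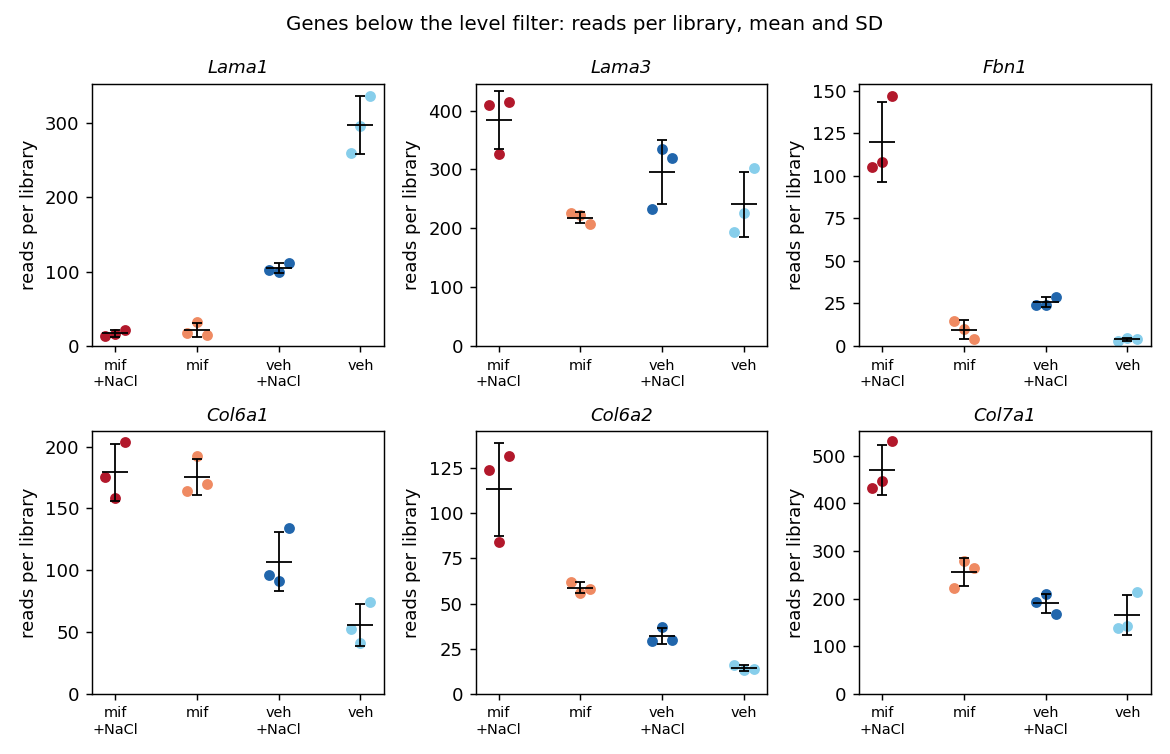
Recovered reads per library (points), with group mean and SD (lines), of 6 matrix genes that stayed below the filter, 3 libraries per group, axes from 0. Lama1 is near 0 in both mifepristone groups, and Fbn1, Col6a2 and Col7a1 are highest with mifepristone and NaCl.

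Other genes that act on the matrix were called in both directions in each of 4 lists. Of all tested genes, mifepristone raised 26.8% and lowered 31.9% with NaCl and raised 28.3% and lowered 31.5% without, and NaCl raised 24.5% and lowered 34.2% in mifepristone cells and raised 25.2% and lowered 31.5% in vehicle cells. Of 18 tested matrix receptor genes, mifepristone raised 4 and lowered 10 with NaCl and raised 3 and lowered 10 without, and NaCl raised 6 and lowered 9 in mifepristone cells and raised 7 and lowered 6 in vehicle cells. Itga1, the collagen-binding integrin alpha chain, fell 6.23-fold with mifepristone under NaCl and 3.72-fold without, while Itgb1, its beta chain, rose 1.58-fold and 1.49-fold (limma adjusted p = 6.36e-08, 1.04e-06, 5.67e-08 and 2.13e-07). Of 12 tested collagen synthesis genes, mifepristone raised 3 and lowered 4 with NaCl and raised 3 and lowered 6 without, and NaCl raised 7 and lowered 4 in mifepristone cells and raised 5 and lowered 4 in vehicle cells. Bmp1, the protease that cuts procollagen and activates lysyl oxidase, rose 2.92-fold with mifepristone under NaCl and 3.63-fold without, and P3h2, a prolyl hydroxylase that acts on collagen IV, fell 1.59-fold and 3.06-fold (limma adjusted p = 9.26e-11, 3.09e-11, 0.000145 and 1.12e-07).

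Of 7 further basement membrane genes tested, mifepristone raised 1 and lowered 6 with NaCl and raised 2 and lowered 4 without (all tested genes 26.8% and 31.9%, and 28.3% and 31.5%), and NaCl raised 2 and lowered 5 in mifepristone cells and raised 1 and lowered 4 in vehicle cells. Npnt, nephronectin, an integrin ligand of kidney development, fell 9.32-fold under NaCl, to 7.05 FPKM with mifepristone against 69.8 FPKM with vehicle, and 2.04-fold without NaCl (limma adjusted p = 6.54e-12 and 3.47e-08). Ntn4, netrin-4, which binds laminin gamma chains, fell 4.61-fold and 6.59-fold (limma adjusted p = 1.71e-09 and 3.79e-10). The 1 gene of this list raised by mifepristone under NaCl rose by 2.20 log2 units, and the largest rise without NaCl was 0.78. Of 9 tested genes of the plasmin system and other proteases, mifepristone raised 3 and lowered 6 with NaCl and raised 4 and lowered 5 without, and NaCl raised 4 and lowered 5 in either kind of cells. Plau, the urokinase gene, was 1.57-fold higher with mifepristone under NaCl and 2.12-fold lower without, and Plat, tissue plasminogen activator, was 2.64-fold lower under NaCl and 1.34-fold higher without (limma adjusted p = 1.81e-07, 2.87e-09, 2.47e-10 and 5.11e-06). Adamts5, an aggrecan-cutting relative of Adamts1, fell 2.41-fold and 2.96-fold (limma adjusted p = 1.59e-09 and 3.49e-10).

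The authors' deposited table marks genes with a nearby ChIP peak, and its header does not name the factor. The mark stood on 20 of the 28 tested matrix genes (71.4%) and on 3987 of the 14044 tested genes (28.4%). Of the 15 tested basement membrane genes 11 carried it. Matrix genes are longer than most, and whether the mark depends on gene length was not tested.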

How the data were processed

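Libraries of IMCD3 53a cells were made from poly(A) RNA, per the labels' protocols, with a kit for TruSeq. Per the submitters' processing notes, the genome build was GRCm38 (mm10) and the tools were DESeq2 1.12.3, SAMtools 1.0, STAR 2.4.2a and Trimmomatic 0.32. How reads were counted, with which annotation and whether by strand, is not given in the sources used here. Overlapping genes may therefore share reads. The values, deposited by the authors, are FPKM for 48034 genes in each library. A further table deposited by the authors holds a mean signal for each gene, an average of normalized counts. The 6 columns named for the mutant were matched to the mifepristone titles by NaCl, letter and knowledge of the study, and 0 columns stayed without a sample. Separate cultures are not stated in the labels, so p-values may measure technical spread.

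FPKM times the ratio of mean signal to mean FPKM, divided by the value of 1 read in that library, was whole within 0.05 for 100.000% of values, over 32627 genes. These were used for genes below the filter and for voom alternatives. Tests used limma 3.58.1 under R 4.3.3, trended and robust, on log2(FPKM + 0.5) with 4 group means over 12 libraries and 8 residual degrees of freedom, for genes with at least 1 FPKM in at least 3 libraries. On this scale, changes of genes at few FPKM tend to come out smaller than on the recovered reads. P-values were adjusted by Benjamini-Hochberg over all 14044 genes tested, with calls under 0.05. The limit of 3 reads for a count of 0 covers counting error only, while SEs and SDs come from the spread between libraries. Ratios of Col4a1 to Col4a2, Col4a3 to Col4a4 and Col4a5 to Col4a6 were compared by exact permutation tests. The other ratios were not tested. The members, the lists and the tests were chosen with earlier results of these data known. Values in every library are given for up to 3 called members per comparison and class by size of change, where groups did not overlap. Coordinates come from GENCODE M21 on GRCm38, with 98.5% of identifiers matched, and start windows from RefSeq, with 33 of 51 genes matched. Same-letter libraries did not deviate together as a rule (correlations from -0.50 to 0.29, with 6 of 18 pairs over 0.1), so the letters were not used as pairs. Alternatives were other pseudocounts, no filter, median-ratio scaling, a replicate block, leaving out each library or vehicle A and mifepristone C together, and voom on recovered reads. Other work used Python 3.11.15, pandas 2.3.3, numpy 2.4.6 and scipy 1.17.1, and figures drawn with matplotlib 3.10.9.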

Additional observations from a re-analysis of the deposited data

Results flagged for a closer look

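For 16 of the 28 tested matrix genes the mifepristone effect differed between cells with and without added NaCl, by the interaction term of the limma fit (adjusted p under 0.05), which 31.1% of all tested genes also passed. Among basement membrane genes the mifepristone effect was more positive with NaCl for Col4a1 (log2 difference 2.01), Col4a2 (1.85), Nid2 (1.27) and Lamb3 (0.97). It was more negative with NaCl for Col18a1 (-0.77), Lama5 (-0.64), Agrn (-0.37) and Lamb1 (-0.22). In Col4a1 and Col4a2 the effect had opposite signs, 1.62 and 0.65 with NaCl against -0.38 and -1.20 without, and all 4 differences were called.

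In the other classes the effect was more positive with NaCl for Loxl4 (2.63), Spp1 (0.86) and Mmp2 (0.53). It was more negative with NaCl for Tnc (-1.51), Timp3 (-1.13), Col12a1 (-0.96), Dcn (-0.82) and Timp2 (-0.15). The terms of Lama5, Lamb1, Agrn, Timp2 and Dcn were not called under at least 1 alternative. Voom on the recovered reads gave a larger interaction for Col12a1 (-1.59) and Mmp2 (0.92), which, like Dcn and Tnc, passed the level filter only through some groups. For Dcn the call was lost with voom on the recovered reads (-0.86, adjusted p = 0.106). With single libraries left out, the terms of Lama5 and Agrn stayed called only without mifepristone + NaCl C, mifepristone C or vehicle C, and were -0.71 to -0.50 and -0.39 to -0.30 without any other library. That of Lamb1 stayed called only without those 3 or vehicle + NaCl A, and was -0.23 to -0.19 otherwise. That of Timp2 was lost without mifepristone + NaCl B, mifepristone B, any vehicle + NaCl library, vehicle B or vehicle C, at -0.16 to -0.13. The 11 other terms were called under all 20 alternatives.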

How the results depend on the processing

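Of the calls on the 28 tested genes, 14 of 17 for mifepristone without NaCl, 18 of 19 for mifepristone with NaCl, 20 of 22 for NaCl in vehicle cells, 20 of 24 for NaCl in mifepristone cells and 11 of 16 for the interaction were made under all 20 alternatives, and none of them changed sign. The count of genes higher with mifepristone under NaCl was 10 (26.8% of all genes), against 17 with no level filter (22.1% of 27791 genes) and 17 with voom on genes of at least 10 reads in at least 3 libraries (31.5% of 18349 genes), both of which fit more genes of low level; this voom setting was chosen after seeing the data. The count of genes with a lower interaction was 9 (17.5% of all genes), against 5 with the replicate block (14.7%), 4 with voom (14.1%), 5 with voom on genes of at least 10 reads (11.7%), and 5 to 11 when single libraries were left out (13.9% to 25.9%); the cause was not tested. Same-letter libraries had correlations of their deviations from -0.50 to 0.29 over 18 pairs, 6 of them over 0.1. Values that were not called and changed sign when a library was left out lay near 0: for mifepristone without NaCl, Lamc1 ran from -0.0725 to 0.169, Hspg2 from -0.181 to 0.256 and Fn1 from -0.0555 to 0.278; for mifepristone with NaCl, Col4a6 ran from -0.113 to 0.0017, Lamc1 from -0.0183 to 0.0886 and Fn1 from -0.0854 to 0.11; for NaCl in vehicle cells, Dcn ran from -0.0466 to 0.0256 and Agrn from -0.0041 to 0.121; for the interaction, Fn1 ran from -0.266 to 0.0682 and Lamc1 from -0.122 to 0.12. Without vehicle A and mifepristone C together, Agrn under NaCl in vehicle cells was -0.0041 and the Lamc1 interaction -0.032. With 3 libraries per group, changes of genes under about 10 reads are not resolved.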
